A study of Acomys cahirinus and Mus musculus with 10 samples.

Results

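The genes described here are 10 matrix metalloproteinases measured in the punched ear of *A. cahirinus*, a spiny mouse, and of *M. musculus*, the laboratory mouse: *Mmp2*, *Mmp3*, *Mmp8*, *Mmp9*, *Mmp10*, *Mmp11*, *Mmp12*, *Mmp13*, *Mmp14* and *Mmp19*. They were chosen by their mouse symbols, by no threshold on a measured value, but with earlier results of these data known. All 10 were among the 13972 ortholog pairs that had a value in each of 8 comparisons, and among 20579 *M. musculus* gene symbols that could be given a row. Each was found in *M. musculus* through its gene number in the deposited reference, and in *A. cahirinus* through the assembled component with the highest BLASTN bit score below 99% identity. The components of *Mmp9* and *Mmp13* were those of the contigs used for qPCR in the study.

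Ear tissue was taken before a 4 mm biopsy punch (D0) and 5, 10, 15 and 20 days after it (D5 to D20), from a ring close to the wound edge in sexually mature females of both species. The labels call the injured *A. cahirinus* tissue regenerating and the injured *M. musculus* tissue fibrotic, and D0 is uninjured ear in both. Each group is 3 animals by the study's account, with no other treatment, and the *M. musculus* were CD1 mice, an outbred stock. The tables hold group values and none per animal, so nothing below has a spread between animals, and the change of each gene carries only the authors' EBSeq posterior probability and an interval for counting error.

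Matrix metalloproteinases are zinc enzymes that cut collagens and other parts of the extracellular matrix and release or destroy signals bound to it. Most are secreted in an inactive form whose propeptide blocks the zinc with a cysteine, and are activated by plasmin, by furin or by each other, while tissue inhibitors of metalloproteinases (TIMPs) block the active enzyme. In healing skin they are made by wound-edge keratinocytes, fibroblasts, macrophages and neutrophils. In whole tissue, fewer cells of a type and less RNA per cell cannot be told apart.

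For *A. cahirinus* the catalytic site was looked for in the sequence alone. The components had already been picked by their BLASTN hits to these genes. Finding the site therefore shows only that a component holds this zinc-binding stretch, and membership of this family was not tested by it. The *M. musculus* transcripts had already been matched to these genes, so the site in them does not check which row is theirs. The site is a stretch of 11 codons with 3 histidines that hold the zinc, a glutamate beside the first of them and a glycine between the second and the third. In both references it was found in all 10 genes. The 5 genes whose change differed most between species are shown, with the codons of the histidines, the glutamate and the glycine in capitals and the rest in lower case, 5′ to 3′ on the coding strand.
*Mmp3* *A. cahirinus*: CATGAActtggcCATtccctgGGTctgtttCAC
*Mmp3* *M. musculus*: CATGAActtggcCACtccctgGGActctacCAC
*Mmp9* *A. cahirinus*: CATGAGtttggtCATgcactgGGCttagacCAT
*Mmp9* *M. musculus*: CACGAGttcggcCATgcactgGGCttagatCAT
*Mmp10* *A. cahirinus*: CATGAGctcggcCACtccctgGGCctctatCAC
*Mmp10* *M. musculus*: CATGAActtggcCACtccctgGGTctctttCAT
*Mmp12* *A. cahirinus*: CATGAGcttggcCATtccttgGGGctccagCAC
*Mmp12* *M. musculus*: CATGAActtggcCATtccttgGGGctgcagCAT
*Mmp13* *A. cahirinus*: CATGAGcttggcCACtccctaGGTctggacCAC
*Mmp13* *M. musculus*: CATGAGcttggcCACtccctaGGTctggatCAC

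Between species the 33 bases differed at 5 places in *Mmp3* and *Mmp10*, at 4 in *Mmp9*, at 3 in *Mmp12* and at 1 in *Mmp13*. The encoded amino acids were the same in 7 of the 10 genes, and *Mmp2*, *Mmp3* and *Mmp10* each had 1 codon that changed the amino acid. For *Mmp3* and *Mmp10* this change was crosswise, as each *A. cahirinus* site encoded the amino acids of the other gene in *M. musculus*. Each also differed at fewer of the 33 bases from that other gene than from its own. The site therefore does not bear out the names of this pair, which rest on BLASTN alignments of 1433 and 732 bases. In *A. cahirinus* the complete site was found in 1 contig of each component at least, also for *Mmp10*, whose only contig has 736 bases.

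On the GRCm38 build, in GENCODE M21, 5 of the genes lie in 1 cluster on the plus strand of chromosome 9, which also holds *Mmp1a* and *Mmp1b*. These are *Mmp13* at chr9:7272514-7283331, *Mmp12* at chr9:7344381-7369499, *Mmp3* at chr9:7445822-7455975, *Mmp10* at chr9:7502352-7510240 and *Mmp8* at chr9:7558456-7568485. The others are spread over 4 chromosomes, with *Mmp2* at chr8:92827291-92853420, *Mmp9* at chr2:164940780-164955850, *Mmp14* at chr14:54431612-54445364, and *Mmp11* and *Mmp19* on chromosome 10 at chr10:75923222-75936496 and chr10:128790910-128800824.

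Sequence shared with other genes bears on 5 of the *M. musculus* rows, counted as stretches of 50 bases, the read length, with at most 2 mismatches on either strand. *Mmp3* and *Mmp10* share such stretches with each other, in an alignment with 1104 matching bases. *Mmp12* shares them with 45 other genes, the longest alignment being with *Cyb5r4* at 915 matching bases. *Mmp19* shares 789 bases with *Tmem198b*. *Mmp14* shares only short ones, of at most 66 matching bases, with 86 genes. In *A. cahirinus*, *Mmp2* and *Mmp14* shared such stretches with 2 other components each and the other 8 genes with none. How RSEM divided the reads of these stretches was not tested.

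In *A. cahirinus* most of these genes rose after injury. At a posterior probability of at least 0.95, 8 of 10 were called higher at D5, D10 and D15 and 7 at D20, where 31.3%, 21.6%, 18.6% and 12.9% of all ortholog pairs were called higher. None was called lower by EBSeq on any day, against 11.2%, 11.5%, 14.5% and 15% of pairs. The median log2 fold change of the 10 genes was 1.79, 3.18, 2.52 and 2.02 in day order, while that of all pairs lay between -0.03 and 0.21. *Mmp2*, *Mmp3*, *Mmp9*, *Mmp13*, *Mmp14* and *Mmp19* were called higher on every day, as were 7.8% of pairs.

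In *M. musculus*, 7 of 10 were called higher at D5, D10 and D15 and 5 at D20, against 23.8%, 21.8%, 18.7% and 17.4% of pairs. *Mmp12* was called lower on every day and *Mmp9* at D20, which gave 1 gene called lower at D5, D10 and D15 and 2 at D20, against 17.4%, 18%, 16.4% and 16% of pairs. The median log2 fold change of the 10 genes was 1.73, 1.89, 1.82 and 1.77 from D5 to D20 and that of all pairs between 0.04 and 0.05. *Mmp2*, *Mmp3*, *Mmp11*, *Mmp14* and *Mmp19* were called higher on every day, as were 9.45% of pairs. The genes called higher on all 4 days in both species were therefore 4, *Mmp2*, *Mmp3*, *Mmp14* and *Mmp19*, against 3.4% of pairs. With a least log2 change of 1 on each day they were 2, *Mmp3* and *Mmp19*.

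**Figure D1:**
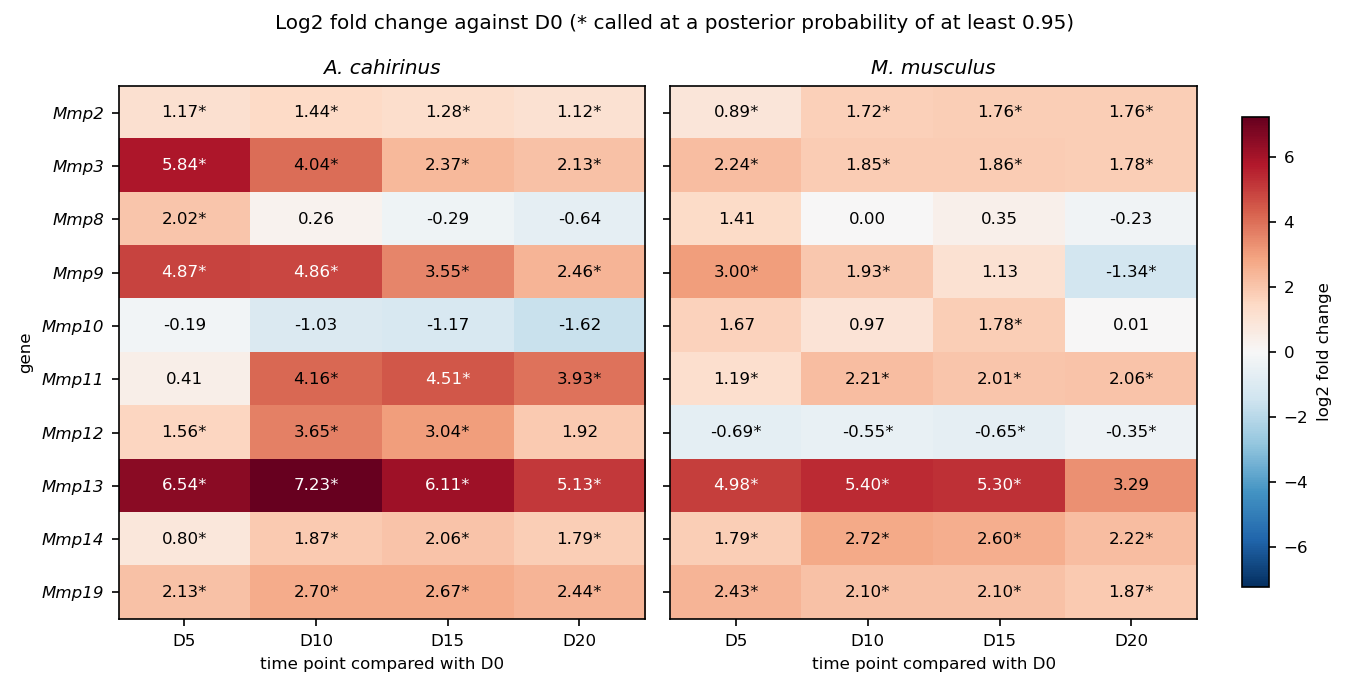
Log2 fold change of each gene (rows) at D5 to D20 against D0 (columns) in *A. cahirinus* (left) and *M. musculus* (right), with red above 0, blue below 0 and a star where the posterior probability was at least 0.95. *Mmp13* had the highest values in both species, 7.23 and 5.40 at D10, and called changes in opposite directions appear for *Mmp12* from D5 to D15 and for *Mmp9* at D20.

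The levels given below are group means in normalised reads per library, placed on 1 scale per species. The 2 species were normalised apart, so their levels are not compared with each other. Before they were placed on this scale, the groups summed to 14454829 to 18203633 reads per library in *A. cahirinus*, and in *M. musculus* to 7330084 to 9409080. These ranges also hold the normalisation of each comparison, as the sum of the same D0 group differed between comparisons. The low means of a group fell on 3 steps, as for 3 libraries, except for D15 in *A. cahirinus*, where they fell on 2, and every D15 value of that species rests on that group. The labelled tissue was checked by its markers. *Acan*, the main proteoglycan of cartilage, had 4806 reads at D0 in *A. cahirinus* and 3892 in *M. musculus*, and *Krt14*, a keratin of basal epidermis, had 2202 and 15652. The cartilage list, with 8 of 9 genes in *A. cahirinus* and all 9 in *M. musculus*, summed to between 4403.5 and 7453 reads and between 3225 and 6368.

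**Figure D2:**
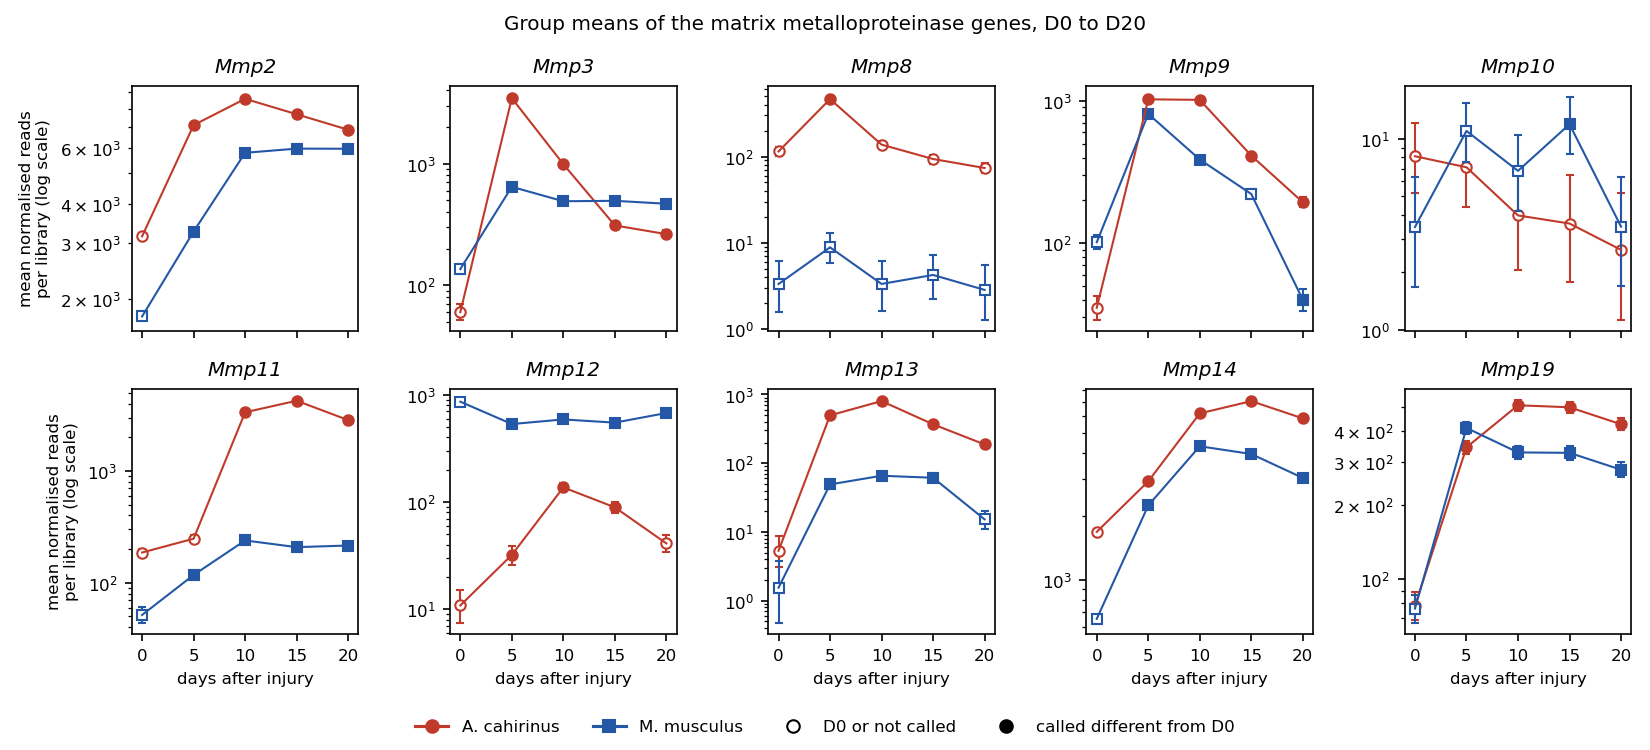
Mean normalised reads per library (log axis, its range set for each panel) of each gene at D0 to D20 in *A. cahirinus* (circles) and *M. musculus* (squares), with 95% Poisson intervals that cover counting error only, filled symbols where the change from D0 was called and open ones at D0 or where it was not. *Mmp3* in *A. cahirinus* stood at 60.2 at D0 and 3450.5 at D5, and *Mmp12* in *M. musculus* was highest at D0, at 863.

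The gelatinases cut denatured collagen and basement membrane collagen. *Mmp2*, made chiefly by fibroblasts, was the most abundant of the 10 genes at D0 in both species, also per kilobase of the longest sequence of its row. In *A. cahirinus* it averaged 3154 reads at D0 and 7090.1, 8587, 7675 and 6855 at D5, D10, D15 and D20. These are log2 fold changes of 1.17, 1.44, 1.28 and 1.12, all called higher. The *M. musculus* gene averaged 1759 reads at D0 and 3266, 5795, 5976 and 5968 afterwards, with log2 fold changes of 0.89, 1.72, 1.76 and 1.76, again all called. The *A. cahirinus* level was highest at D10 and stood at 79.8% of that at D20, whereas the *M. musculus* level at D20 was 99.9% of its highest, at D15.

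*Mmp9*, which neutrophils, macrophages, keratinocytes and osteoclasts make, had larger log2 fold changes than *Mmp2* on all 4 days in *A. cahirinus*. In *M. musculus* its mean over the 4 days was 1.18, against 1.53 for *Mmp2*. The *A. cahirinus* means were 35.1 reads at D0, 1026 and 1018 at the next 2 time points, then 412 and, at D20, 194. The log2 fold changes were 4.87, 4.86, 3.55 and 2.46, all called higher, and the D20 level was still 5.52 times that of D0. The *M. musculus* row had 101 reads at D0 and 811, 387, 221 and 39.99 at the later days. Here the gene was called higher at D5 (3.00) and D10 (1.93), was not called at D15 (1.13) and was called lower at D20 (-1.34). Its mean at D20 was 0.394 times that of D0, outside the counting error, with a 95% interval of the log2 fold change from -1.66 to -1.03. The *A. cahirinus* component covers 1498 aligned bases at 88.92% identity. The *M. musculus* row was placed with a posterior probability of 0.9999, or of 0.764 before the D0 levels of neighbouring genes were used.

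The collagenases make the first cut in fibrillar collagen. *Mmp13* had the largest rise of the 10 genes in both species. The *A. cahirinus* means went from 5.33 reads at D0 to 497, 801, 368 and 188, with log2 fold changes of 6.54, 7.23, 6.11 and 5.13, all called higher. The *M. musculus* means went from 1.55 reads to 49.2, 65.7, 61.4 and 15.3. The first 3 changes, 4.98, 5.40 and 5.30, were called, while the D20 value of 3.29 had a posterior probability of 0.00281 and was not. The D0 mean of 1.55 reads is so low that the 95% counting interval of the D10 change ran from 4.203 to 6.98 in *M. musculus*, against 6.56 to 8.01 in *A. cahirinus*. At D20 the level was 23.4% of its highest in *A. cahirinus* and 23.2% in *M. musculus*.

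*Mmp8*, the collagenase stored in neutrophil granules, was called on a single day in a single species. In *A. cahirinus* it averaged 114 reads at D0 and 463 at D5, a log2 fold change of 2.02 that was called higher. At D10, D15 and D20 it stood at 137, 93.6 and 73.6 reads, with log2 fold changes of 0.26, -0.29 and -0.64, the last with a posterior probability of 0.9001. In *M. musculus* it had 3.32 reads at D0 and 8.84, 3.33, 4.23 and 2.84 afterwards, and its log2 fold changes of 1.41, 0.00, 0.35 and -0.23 were not called. With so few reads its 95% counting interval at D5 ran from 0.28 to 2.67.

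The summed neutrophil markers were highest at D5 in both species, but the sums are not of the same genes. At D5 the largest part was *Csf3r* in *A. cahirinus*, with 957 reads, and *S100a9* in *M. musculus*, with 2506. The *A. cahirinus* sum left out *S100a9*. In *M. musculus* the largest part at D0 and D20 was *Cxcr2*, with 324 and 277 reads. Of 12 neutrophil markers, 5 had a row in *A. cahirinus*, and their summed level was 89.4 reads at D0 and 1954, 240.3, 116 and 70.9 from D5 to D20. *Cxcr2* alone of these was below 1 read at D0. From D5 to D20, 4, 3, 2 and 0 of the 5 were called higher and 0, 1, 1 and 1 lower, the last being *Camp* each time, at -2.42, -3.38 and -3.44. Of all pairs, 31.3%, 21.6%, 18.6% and 12.9% were called higher and 11.2%, 11.5%, 14.5% and 15% lower on these days. *Mmp9* in *A. cahirinus* had 1026 reads at D5 and 1018 at D10, within counting error of each other, while the marker sum went from 1954 to 240.3. In *M. musculus* 9 had a row and summed to 413, 4847, 1461, 1321 and 368 reads, with *Ngp*, *Ltf* and *Retnlg* below 1 read at D0 and D20. Of these, 4, 2, 2 and 0 were called higher and 1, 1, 0 and 0 lower, the latter being *Mpo*, at -2.75 and -1.98, against 23.8%, 21.8%, 18.7% and 17.4% of pairs higher and 17.4%, 18%, 16.4% and 16% lower. Of the osteoclast markers, 4 of 6 with a row in *A. cahirinus* summed to between 859 and 3007 reads, and all 6 of *M. musculus* to between 575 and 2682, lowest at D0 in each, and *Ocstamp* was at 0 at D0 in both. *Ctsk* held most of each sum, with 2114 reads at D5 in *A. cahirinus* and 2237 at D10 in *M. musculus*. *Calcr* was below 1 read from D5 to D20 in *M. musculus*. In *A. cahirinus* 2, 3, 2 and 1 of the 4 were called higher, against 31.3%, 21.6%, 18.6% and 12.9% of pairs. In *M. musculus* 3, 4, 2 and 1 of the 6 were, against 23.8%, 21.8%, 18.7% and 17.4%. The part of either cell type in the changes of *Mmp8*, *Mmp9* and *Mmp13* was not tested.

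The stromelysins cut proteoglycans, fibronectin and laminin and activate other members of the family. *Mmp3* was highest at D5 in *A. cahirinus* and lower on each later day, with 60.2 reads at D0 and 3450.5, 989.5, 311 and 263 from D5 to D20. The log2 fold changes were 5.84, 4.04, 2.37 and 2.13, all called higher, and D20 stood at 7.64% of D5. In *M. musculus* the change was smaller and the 4 later levels lay closer together, from 136 reads at D0 to 645, 491, 495 and 468. Its log2 fold changes of 2.24, 1.85, 1.86 and 1.78 were all called higher, and D20 stood at 72.6% of D5. At D5 *Mmp3* was the first of the 10 genes in *A. cahirinus* per kilobase, with 38.5% of their summed level, and the third in *M. musculus*, with 12.5%. Its rank in *A. cahirinus* depends on the contig lengths. By reads *Mmp2* was higher there at D5, at 7090.1, but its longest contig has 4121 bases against 1786 for *Mmp3*. The *M. musculus* transcript of *Mmp2* has 3041 bases.

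*Mmp10*, a close relative that keratinocytes at the wound edge make, had few reads in both species. In *A. cahirinus* it averaged 8.12 at D0 and 7.10, 3.98, 3.61 and 2.63 afterwards, with log2 fold changes of -0.19, -1.03, -1.17 and -1.62, none called. Its *M. musculus* mean was 3.46 at D0 and 11.01, 6.80, 11.9 and 3.48 afterwards. The D15 value of 1.78 was called higher with a posterior probability of 0.98, below the stricter threshold of 0.99. The D5 value of 1.67 missed the threshold with a posterior probability of 0.937, and D10 (0.97) and D20 (0.01) were not called. The *A. cahirinus* component is a partial one, aligned over 732 bases, from the same assembly group as that of *Mmp3*. The 95% counting intervals at D5 were -1.14 to 0.74 in *A. cahirinus*, and in *M. musculus* 0.60 to 2.88. The wound keratinocyte markers, of which 10 of 12 had a row in *A. cahirinus* and 9 in *M. musculus*, summed to 4518 reads at D0 and 25433, 10307, 7221 and 6347 afterwards in the former. In the latter they summed to 17550.5 at D0 and to 228929.8, 67796, 37735 and 17917. These sums are not of the same genes. The *A. cahirinus* sum left out *Krt6b* and *Krt5*, and the *M. musculus* sum left out *Krt6a*, *Krt16* and *Inhba*. *Krt6b* alone went from 34.5 reads at D0 to 61721 at D5 in *M. musculus*.

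*Mmp11*, also called stromelysin-3 and activated inside the cell by furin, had its highest level at D15 in *A. cahirinus*, as *Mmp14* did. Its mean was 186 reads at D0 and 248 at D5, a log2 fold change of 0.41 that was not called. It then rose to 3341, 4239 and 2847 from D10 to D20, with log2 fold changes of 4.16, 4.51 and 3.93, all called higher. The *M. musculus* gene was called higher on every day, at D5 too, from 51.6 reads at D0 to 117, 239, 208 and 215. The log2 fold changes there were 1.19, 2.21, 2.01 and 2.06. At D15 *Mmp11* made up 22.2% of the summed level per kilobase of the 10 genes in *A. cahirinus* and 2.22% in *M. musculus*.

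*Mmp12*, the elastase of macrophages, was called in opposite directions. The *A. cahirinus* component averaged 10.9 reads at D0 and 32.2, 137, 89.3 and 41.2 from D5 to D20. The log2 fold changes of 1.56, 3.65 and 3.04 were called higher, and that of D20, 1.92, was not, with a posterior probability of 0.816. The *M. musculus* row had 863 reads at D0 and 534, 589, 550.3 and 676 afterwards, called lower on all 4 days with log2 fold changes of -0.69, -0.55, -0.65 and -0.35. The *A. cahirinus* component aligned to the *M. musculus* transcript over 648 of its 1833 bases. Summing it with both other components whose best hit is *Mmp12*, which align over 128 and 180 bases only, took the *A. cahirinus* change at D10 to 0.48. The *M. musculus* row holds 6 transcripts, up to 4621 bases long, that share stretches with 45 other genes, and how far its 863 reads at D0 come from *Mmp12* was not tested.

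Of 11 macrophage markers with a row in *A. cahirinus*, 9, 7, 5 and 0 were called higher from D5 to D20, against 31.3%, 21.6%, 18.6% and 12.9% of pairs, and 1 lower, at D20, against 15%. Of 11 in *M. musculus*, 10, 9, 10 and 10 were called higher, against 23.8%, 21.8%, 18.7% and 17.4% of pairs. The 11 of 12 markers with a row in *A. cahirinus* summed to 5323 reads at D0 and to 21989, 10621, 7468 and 5801 afterwards. In *M. musculus*, also with 11 of 12, they summed to 2686 at D0 and to 9337, 6563, 5861 and 6410.3. None of these markers was below 1 read in any group. The *Mmp12* row of *M. musculus* had 534 reads at D5, when the sum of these markers was highest, and 550.3 at D15, with overlapping counting intervals. The part of macrophages in the change of *Mmp12* was not tested.

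*Mmp14* is the membrane-type enzyme that activates the proform of *Mmp2* and digests fibrillar collagen at the cell surface. In *A. cahirinus* it rose from 1690.0 reads at D0 to 2935, 6167, 7053 and 5840.2, with log2 fold changes of 0.80, 1.87, 2.06 and 1.79. In *M. musculus* it rose from 653 reads to 2255, 4307, 3956 and 3047, with log2 fold changes of 1.79, 2.72, 2.60 and 2.22. All 8 changes were called higher. The rise was larger in *M. musculus* on each day, by 0.43 to 0.99 on the log2 scale.

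*Mmp19*, a secreted enzyme of epidermis and stroma, was called higher throughout. Its *A. cahirinus* level rose from 78.2 reads at D0 to 343, 508, 498 and 425 reads, with log2 fold changes of 2.13, 2.70, 2.67 and 2.44. Its *M. musculus* level rose from 76.2 reads to 411, 327, 326 and 278, with log2 fold changes of 2.43, 2.102, 2.096 and 1.87. The highest level was at D10 in *A. cahirinus* and at D5 in *M. musculus*.

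The fibroblast markers, which *Mmp2*, *Mmp11* and *Mmp14* can be set beside, had their highest sum at D15 in both species. With 10 of 12 markers in *A. cahirinus* they summed to 94088 reads at D0 and 103280.1, 418434, 460735 and 379881 from D5 to D20, and 4, 9, 10 and 10 of them were called higher, against 31.3%, 21.6%, 18.6% and 12.9% of pairs. *Postn*, a matrix protein with 51526 of the reads at D0, was the 1 called lower, at D5 (-0.75). In *M. musculus*, with 12 of 12, they summed to 69997 at D0 and to 287194, 568754, 603215 and 574124, with 9, 10, 9 and 10 called higher, against 23.8%, 21.8%, 18.7% and 17.4% of pairs. No marker was below 1 read in any group. Their part in the changes of the proteinases was not tested.

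Per kilobase of the longest sequence of each row, the 10 genes together went from 1179 reads at D0 to 5024, 5370.2, 4666 and 3710 in *A. cahirinus*, and from 1174 to 2873, 4319, 4172 and 3741 in *M. musculus*. *Mmp2* made up 64.9% of this sum at D0 in *A. cahirinus* and 34.2%, 38.8%, 39.9% and 44.8% on the later days. Its *M. musculus* shares were 49.3%, 37.4%, 44.1%, 47.1% and 52.5%. *Mmp14* was second at D0 in both, with 20.1% and 21.4%, and reached 38.4% in *M. musculus* at D10 against 16.1% in *A. cahirinus*. The shares depend on the length taken for each row, and the *A. cahirinus* contigs can be longer or shorter than the full transcript.

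**Figure D3:**
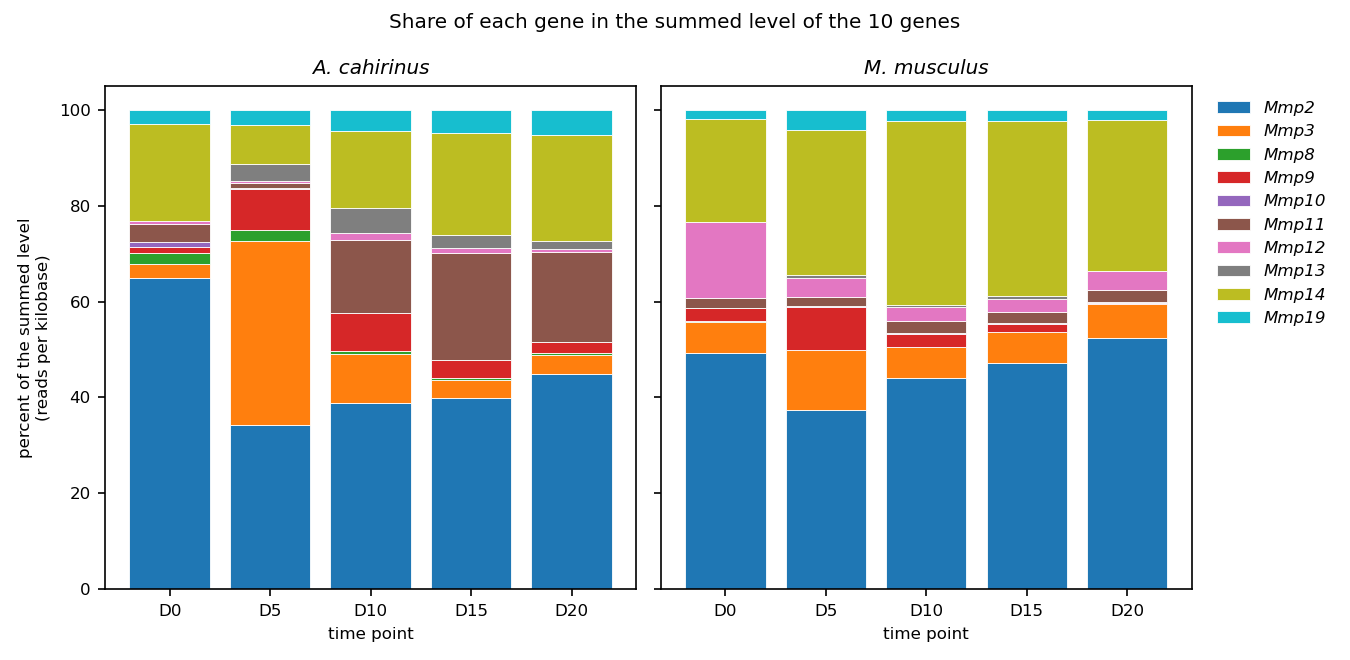
Share of each gene, in percent, in the summed level per kilobase of the 10 genes at D0 to D20 in *A. cahirinus* (left) and *M. musculus* (right). The shares and ranks depend on the length taken for each row. *Mmp3* takes 38.5% of the *A. cahirinus* bar at D5 and *Mmp11* 22.2% at D15. *Mmp2* and *Mmp14* together make up most of every *M. musculus* bar and of every *A. cahirinus* bar except that of D5.

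The study asked how the response of a regenerating species differs from that of a scarring one. The difference between species was taken as the log2 fold change in *A. cahirinus* less that in *M. musculus*, averaged over the 4 days, and was not tested, since there are no values per animal. It was 3.10 for *Mmp12*, 2.76 for *Mmp9*, 1.66 for *Mmp3*, 1.51 for *Mmp13* and 1.39 for *Mmp11*. It was -2.11 for *Mmp10*, -0.70 for *Mmp14*, -0.28 for *Mmp2*, -0.05 for *Mmp8* and 0.36 for *Mmp19*. For 6 of the 10 genes its size was at least 1, against 17% of all ortholog pairs, and its median over the genes was 0.87 against 0.03 over all pairs. The values of *Mmp3* and *Mmp10* hold only if their *A. cahirinus* components are rightly named, which the catalytic site did not bear out. An exchange of the 2 names was not tested.

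The order of the species held on each of the 4 days for *Mmp3*, *Mmp9*, *Mmp12* and *Mmp13*, higher in *A. cahirinus*, and for *Mmp10* and *Mmp14*, higher in *M. musculus*. The counting intervals of the species overlapped on each day for *Mmp13*, on each day except D15 for *Mmp10*, and at D20 for *Mmp3*. On those days counting error alone was not shown to separate the species. The intervals of *Mmp9*, *Mmp12* and *Mmp14* did not overlap on any day. For *Mmp3* the difference was 3.60 at D5 and 0.35 at D20. For *Mmp9* it was smallest at D5, at 1.87, and largest at D20, at 3.81. *Mmp11* had the larger change in *M. musculus* at D5, with a difference of -0.78, and in *A. cahirinus* later, up to 2.49 at D15. That of *Mmp8* turned to 0.15 without D15, and that of *Mmp12* was 0.65 with its 3 *A. cahirinus* components summed.

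**Figure D4:**
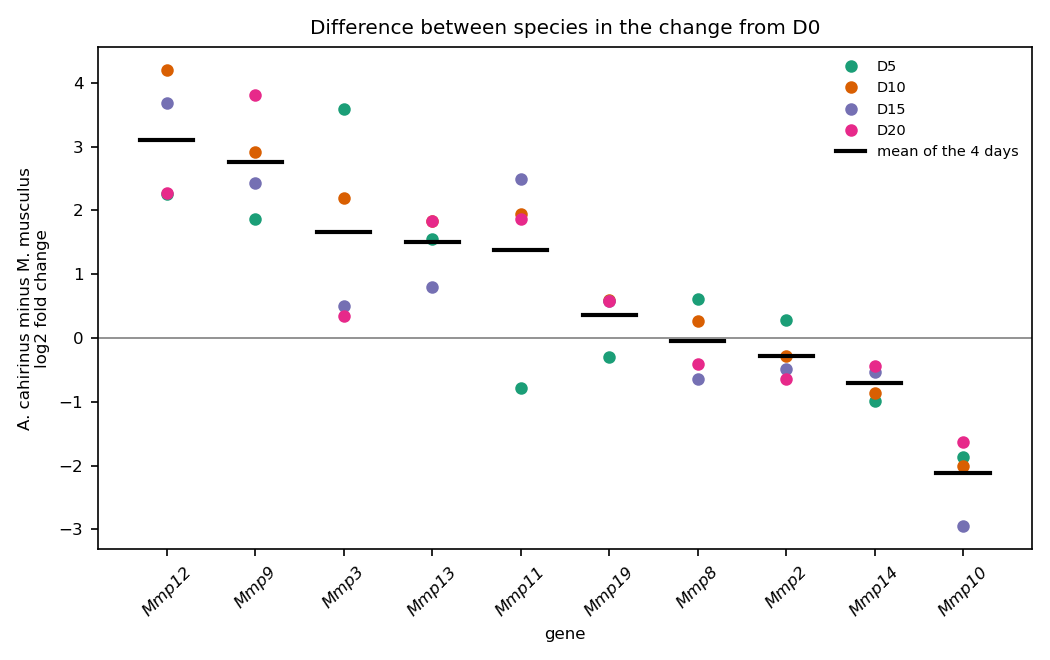
*A. cahirinus* minus *M. musculus* log2 fold change of each gene at D5, D10, D15 and D20 (coloured points), with the mean of the 4 days as a black line, ordered by that mean. The 4 points of *Mmp12* and *Mmp9* lie between 1.87 and 4.205 and those of *Mmp10* between -2.95 and -1.63.

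Of the other 13 matrix metalloproteinase genes, 8 had a row in every table of *A. cahirinus* and 11 in every table of *M. musculus*. In *A. cahirinus* 1, 2, 3 and 2 of the 8 were called higher from D5 to D20, against 31.3%, 21.6%, 18.6% and 12.9% of all pairs, and 1 was called lower on each day, against 11.2%, 11.5%, 14.5% and 15%. In *M. musculus* 2, 4, 4 and 3 of the 11 were called higher, against 23.8%, 21.8%, 18.7% and 17.4% of all pairs, and 1 was called lower, at D15, against 16.4%. Their median log2 fold change lay between -0.43 and 0.35 in *A. cahirinus*, and between 0.45 and 0.80 in the other species. *Mmp1a*, *Mmp1b*, *Mmp7*, *Mmp20* and *Mmp24* had no row in *A. cahirinus*. In *M. musculus*, *Mmp1a* and *Mmp7* had one in some tables only, at less than 1 read and not called.

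*Mmp25*, a membrane-anchored enzyme of leukocytes, went from 12.3 reads at D0 to 226 at D5 and 51.0 at D20 in *A. cahirinus*, with log2 fold changes of 4.204, 2.42, 2.33 and 2.06, all called higher. In *M. musculus* it had 17.4 reads at D0 and 37.0 at D5, and its values of 1.09, 0.20, 0.61 and 0.35 were not called. *Mmp23* was called higher from D10 on in *A. cahirinus* (1.77, 2.17 and 1.67) and on every day in *M. musculus* (2.69, 3.25, 3.54 and 3.20), and its *A. cahirinus* value at D5 was -0.57. *Mmp28*, a keratinocyte enzyme, was called lower on every day in *A. cahirinus* (-0.52, -1.07, -1.36 and -1.196) and at D15 in *M. musculus* (-0.47).

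The membrane-type genes *Mmp15*, *Mmp16* and *Mmp17* were called in *M. musculus* only, which does not show that the species differ. *Mmp15* was called higher at D5, D10 and D15 there (0.55, 0.80 and 0.65), *Mmp16* from D10 on (2.24, 2.04 and 1.72) and *Mmp17* from D10 on (2.00, 2.38 and 1.49). In *A. cahirinus* the 4 values lay between -0.59 and -0.27 for *Mmp15*, between -1.50 and 0.12 for *Mmp16* and between 0.79 and 1.37 for *Mmp17*. *Mmp27* was called once, at D15 in *A. cahirinus* (0.58, with a posterior probability of 0.9503), and *Mmp24*, with 9.53 reads at D0 in *M. musculus*, was not called.

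A list of 12 genes held inhibitors of the enzymes, among them the TIMPs, *Reck* and *A2m*, with the testicans and 3 genes of collagen processing that are not inhibitors of these enzymes (*Serpinh1*, *Pcolce* and *Pcolce2*). In *A. cahirinus* 3, 6, 5 and 5 were called higher from D5 to D20 (31.3%, 21.6%, 18.6% and 12.9% of pairs) and 5, 5, 5 and 4 lower (11.2%, 11.5%, 14.5% and 15% of pairs), with medians of -0.59, 0.06, 0.20 and 0.09. In *M. musculus* 4, 5, 5 and 5 were called higher (23.8%, 21.8%, 18.7% and 17.4% of pairs) and 6, 6, 6 and 4 lower (17.4%, 18%, 16.4% and 16% of pairs), with medians of -0.89, -0.50, 0.24 and 0.09. *Spock3*, a matrix proteoglycan of the testican family, had the highest mean change in both, from only 4.15 reads at D0 in *A. cahirinus* and 2.56 in *M. musculus*. It was called higher at D10 in *A. cahirinus* (4.28) and on all days in *M. musculus* (2.53 to 5.15). The lowest was *Timp3* in *A. cahirinus*, from 3218 reads at D0 to between 761 and 865, and *A2m*, a broad proteinase inhibitor, in *M. musculus*, from 634 reads to between 30.8 and 88.6, each called lower on every day.

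Of 15 genes of the activating proteinases and their regulators, 11 had a row in *A. cahirinus* and 12 in *M. musculus*. In *A. cahirinus* 7, 8, 7 and 6 were called higher from D5 to D20, where 31.3%, 21.6%, 18.6% and 12.9% of pairs were, and 1, 1, 2 and 2 lower, where 11.2%, 11.5%, 14.5% and 15% of pairs were. In *M. musculus* 9, 8, 7 and 7 were called higher, against 23.8%, 21.8%, 18.7% and 17.4% of pairs, and 2, 2, 1 and 2 lower, against 17.4%, 18%, 16.4% and 16%. The medians were 1.24, 1.01, 0.79 and 0.49 for *A. cahirinus*, with 1.39, 1.44, 2.13 and 1.203 for *M. musculus*. The lowest mean changes were those of *Pcsk6*, a proprotein convertase, in *A. cahirinus* (-0.51 to -0.82, called lower on every day) and *Serpinb2*, a serine proteinase inhibitor, in *M. musculus* (-0.72 to -1.32, called lower except at D15).

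Of 16 ADAM and ADAMTS proteinases, 7, 11, 9 and 7 were called higher from D5 to D20 in *A. cahirinus*, with 3, 0, 0 and 1 lower, against 31.3%, 21.6%, 18.6% and 12.9% of pairs higher and 11.2%, 11.5%, 14.5% and 15% lower. In *M. musculus* 12, 12, 10 and 11 were called higher and 1 lower on each day, against 23.8%, 21.8%, 18.7% and 17.4% and 17.4%, 18%, 16.4% and 16% of pairs. *Adamts16* had the highest mean change in both, with 3.13 at D15 in *A. cahirinus* and 6.51 in *M. musculus*, and *Adamts14* the lowest, at -2.15 and -1.76 at D5, all 4 called. The D0 mean of *Adamts16* was 64.0 reads in *A. cahirinus* and only 5.03 in *M. musculus*. Of 16 AP-1, ETS and RUNX factors and cytokines known to induce metalloproteinase genes, 15 had a row in *A. cahirinus*, where 10, 8, 6 and 5 were called higher and 1, 0, 1 and 1 lower, against 31.3%, 21.6%, 18.6% and 12.9% and 11.2%, 11.5%, 14.5% and 15% of pairs. All 16 had one in *M. musculus*, where 10, 7, 8 and 6 were called higher and 0, 2, 2 and 2 lower, against 23.8%, 21.8%, 18.7% and 17.4% and 17.4%, 18%, 16.4% and 16% of pairs. *Il1b*, an inflammatory cytokine, had the highest mean change in both species, with a log2 fold change at D5 of 10.26 in *A. cahirinus* that was 5.79 in *M. musculus*, both called higher. The lowest were *Jund*, an AP-1 subunit, in *A. cahirinus* (-0.47 to -0.72, called lower except at D10) and *Il1a*, another inflammatory cytokine, in *M. musculus* (-0.14 at D5, not called, then -1.24, -1.16 and -1.32, called lower).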

How the data were processed

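RNA of both species, from uninjured ear and 4 later time points, was sequenced as strand-specific paired-end reads of 50 bases after rRNA reduction, with 3 animals per species and time point. The authors assembled the *A. cahirinus* reads with Trinity, used UCSC genes of mm10 for *M. musculus*, counted reads with RSEM and Bowtie and compared each day with D0 in EBSeq. The deposited tables give, per gene or component, the ratio of D0 to the day as a posterior and a real fold change, and posterior probabilities, which are held here as a score. The deposited BLASTN hits give the percent identity of each contig. These are columns of the authors' own comparisons and were used because the deposited tables hold no values per animal.

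The ratios were turned so that positive log2 values mean higher after injury, and a gene was called at a posterior probability of at least 0.95. Since the real fold adds 0.01 to each mean and the posterior fold another constant, the mean of each group was recovered from both and set to 1 scale per species. Counting intervals are 95% Poisson intervals that cover counting error only and take 3 libraries per group. *M. musculus* gene numbers were tied to symbols by the order of the deposited reference along GRCm38 (GENCODE M21), which placed 1911 of 1992 held-out entries rightly and 2 wrongly and left 79 unplaced. Shared stretches were found with minimap2 2.31-r1302. The calculations (SciPy 1.17.1, pandas 2.3.3 and NumPy 2.4.6 under Python 3.11.15) were tested on simulated data.

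All 10 genes were named, every other matrix metalloproteinase with a mean of at least 10 reads in some group, and of the other lists (inhibitors with collagen processing genes, activators, ADAM and ADAMTS proteinases, AP-1 and other factors and cytokines) the highest and the lowest by mean change. A result that this rule would name is not reported here. The few genes named beyond this, such as those below 10 reads, were chosen after their values were seen. The genes and lists were chosen with earlier results of these data known. Alternatives were the posterior fold change, a pseudocount of 1, a threshold of 0.99, a least log2 change of 1, a least mean of 10 reads, centring on the median of all pairs, other choices of component and, added after seeing the data, leaving out D15 and applying these limits to the count of genes called higher on every day.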

Additional observations from a re-analysis of the deposited data

Results flagged for a closer look

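In 4 comparisons the change from D0 was called higher in *A. cahirinus* and lower in *M. musculus*. For *Mmp12* the *A. cahirinus* minus *M. musculus* log2 fold change was 2.25 at D5, 4.205 at D10 and 3.69 at D15. With its 3 *A. cahirinus* components summed, the changes in that species were 0.13, 0.48 and 0.00, and with a least log2 change of 1 none of its *M. musculus* calls of lower remained, so the opposite calls of *Mmp12* do not hold under the second setting. For *Mmp9* it was 3.81 at D20. The difference itself was not tested, since the tables hold no values per animal.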

How the results depend on the processing

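Of 400 alternative values of single gene changes, 392 stayed within 1.5 times of the reported one and none of the called ones changed sign. Many of the 400 could not have moved. The choices of component left every *M. musculus* value unchanged, as summing did for *A. cahirinus* genes with a single component. Centring shifted no value by more than 0.21, below the log2 limit of 0.58. The 8 that moved were *Mmp13* in *M. musculus* with a pseudocount of 1 (4.27, 4.79, 4.57 and 2.67 from D5 to D20) and *Mmp12* in *A. cahirinus* with its components summed (0.13, 0.48, 0.00 and -0.23). Summed components also gave a median of 2.17 for the 10 genes at D10 in *A. cahirinus* and a species difference of 0.65 for *Mmp12*. The species difference of *Mmp8* turned to 0.018 with a pseudocount of 1 and to 0.15 without D15, an alternative chosen after seeing the data. With a least log2 change of 1, the *M. musculus* genes called lower numbered 0 at D5, D10 and D15 and 1 at D20, and a threshold of 0.99 also left 1 at D20. The genes called higher on every day in both species came to 2 with a least log2 change of 1, against 4 without it, and stayed at 4 with a threshold of 0.99 or a least mean of 10 reads, settings applied to this count after seeing the data. The single call of *Mmp10*, at D15 in *M. musculus*, was lost at 0.99. The other matrix metalloproteinases called lower in *M. musculus* came to 0 with either setting. For the activating proteinases and their regulators, calls of lower were added up over the 4 days, so 1 gene can count more than once. With a least log2 change of 1 these calls came to 0 in *A. cahirinus*, against 6 without it. In *M. musculus* they came to 2, against 7, and both were of *Serpinb2*, at D10 and D20.

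No paired analysis was possible because the tables hold group values and none per animal, and leaving out replicates was not possible for the same reason. Depth limits *Mmp8*, *Mmp10* and *Mmp13* in *M. musculus* and *Mmp10* and *Mmp13* in *A. cahirinus*, whose D0 means were below 10 reads.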
